A study of Mus musculus with 12 samples.

Results

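The genes described here are those for the collagen chains, the polypeptides that assemble into the collagens of connective tissue. They were measured in quadriceps muscle on 12 one-colour arrays, each with RNA of 1 mouse. All animals were 13-week-old male mice of the C57BL/6J strain. The exercised group had 6 mice that ran on a motor-driven treadmill over 4 weeks and whose muscle was taken 3 hours after the last bout, and the sedentary group had 6 mice without training. Because each trained mouse was also sampled soon after running, the response to that session and to the whole training period cannot be told apart. The labels name no transgene, allele or agent in either group, and no pooling of animals, so that p-values measure the spread between mice. Arrays sat on 3 slides: slide 1 held 1 exercised and 3 sedentary mice, slide 2 held 3 exercised and 1 sedentary, and slide 3 held 2 exercised and 2 sedentary. The sample titles number each mouse by a set and an animal, so that s2m3 stands for animal 3 of set 2.

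The members were all gene probes whose name on the array is that of a collagen chain. There were 69 such probes for 39 genes among 41174 gene probes. A probe was kept where it was well above background on 6 or more of the 12 arrays, which left 45 probes for 33 genes, out of 22918 probes for 13303 named genes kept in all. Of the 45 probes, 39 were above background on all 12 arrays, and the other 6 on fewer. The 24 probes that were left out include 11 that were above background on no array, and 6 genes were left without a probe (Col4a5, Col6a6, Col9a3, Col10a1, Col17a1 and Col28a1). Just inside the limit stood a Col25a1 probe, above background on 1 exercised and 5 sedentary arrays, and just outside it a Col17a1 probe, on 3 exercised and 2 sedentary arrays. Col6a3 and Col21a1 were not analysed here. Exercised s2m1 and sedentary s2m2 stood low for most chains, and exercised s2m3 was high in tendon and cartilage genes.

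A collagen molecule is a triple helix of 3 chains, in which glycine recurs at a fixed spacing along the helical stretch. Fibrillar collagens, mainly types I and III in muscle, form the cables of the connective tissue sheaths and of tendon. Fibril-associated chains decorate those cables, type IV forms the network of the basement membrane around each fibre, and type VI forms beaded filaments between the membrane and the sheaths. Chains are hydroxylated and folded in the endoplasmic reticulum before they leave the cell, and lysyl oxidases join them outside it.

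The glycine repeat can be read in the array's own oligonucleotides. Its codons begin with GG and recur every 9 bases, and of 41174 probes, each 60 bases long, 3 held a run of 5 or more GG at that spacing. Of these 3, 2 belong to the 69 collagen chain probes and are shown for this reason, with the GG of the run in capitals. The Col5a1 probe holds a run of 6 and was kept, and the Col5a3 probe holds a run of 7 and was left out, being above background on 2 arrays. On mm9, the build of the array annotation, their matches are spliced, at chr2:27842243-27844666 on the plus strand and chr9:20590066-20590795 on the minus strand.
Col5a1 probe A_52_P237371: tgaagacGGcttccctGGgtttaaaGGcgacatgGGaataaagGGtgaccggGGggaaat
Col5a3 probe A_52_P503796: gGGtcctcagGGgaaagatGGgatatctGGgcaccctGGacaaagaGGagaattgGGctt

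Probes of 1 gene can overlap, and then read the same stretch. The 2 kept probes for Col2a1, the chain of cartilage fibrils, share 40 of their 60 bases, which are in capitals below. Both lie on the minus strand of chromosome 15, at chr15:97806505-97806564 and chr15:97806485-97806544, and each has at least 1 reading frame without a stop codon.
Col2a1 probe A_52_P216436: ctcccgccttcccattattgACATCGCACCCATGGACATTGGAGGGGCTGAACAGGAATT
Col2a1 probe A_51_P317141: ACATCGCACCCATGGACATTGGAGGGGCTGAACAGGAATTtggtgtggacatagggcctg

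No collagen chain probe passed the test between exercised and sedentary muscle. By limma with Benjamini-Hochberg adjustment over all 22918 probes, 0 of 45 were called higher and 0 lower at an adjusted p below 0.05, while over all probes 3.31% were called, 1.81% higher and 1.51% lower. At an unadjusted p below 0.05 there were 5 of 45 (3 higher, 2 lower), against 15.7% of all probes. When slide was added as a block 0 of 45 were called (1.93% of all probes, 1.17% higher and 0.768% lower) and 4 were at an unadjusted p below 0.05 (13.9% of all probes). The groups overlapped for every member, whereas 2.89% of all probes had groups that did not. Without sedentary s1m1 1 member was called, the Col7a1 probe, with a log2 difference of -0.65 and an adjusted p of 0.0355. That mouse, at 7.27, was the only sedentary one inside the exercised range of this probe (6.09 to 10.3), so leaving it out removes the overlap. The share of all probes called without sedentary s1m1 is not given here, so this 1 call cannot be set beside it. In whole muscle, fewer cells of a type and less RNA per cell cannot be told apart.

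The log2 difference, exercised minus sedentary, was above 0 for 25 member probes (55.6%, against 44.3% of all probes) and below 0 for 20. Its median was 0.03, against -0.02 over all probes, and within slides 1, 2 and 3 it was 0.19, -0.07 and 0.01. The 95% interval stayed within 2-fold either way for 38 of the 45 probes and within 1.5-fold for 23. For the remaining 7 a change of 2-fold in one direction or the other was within the interval. The members varied more between mice than most probes did. Their median standard deviation within a group was 0.36 on the log2 scale, against 0.19 over all probes, and the number of arrays limits the precision accordingly.

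**Figure D1:**
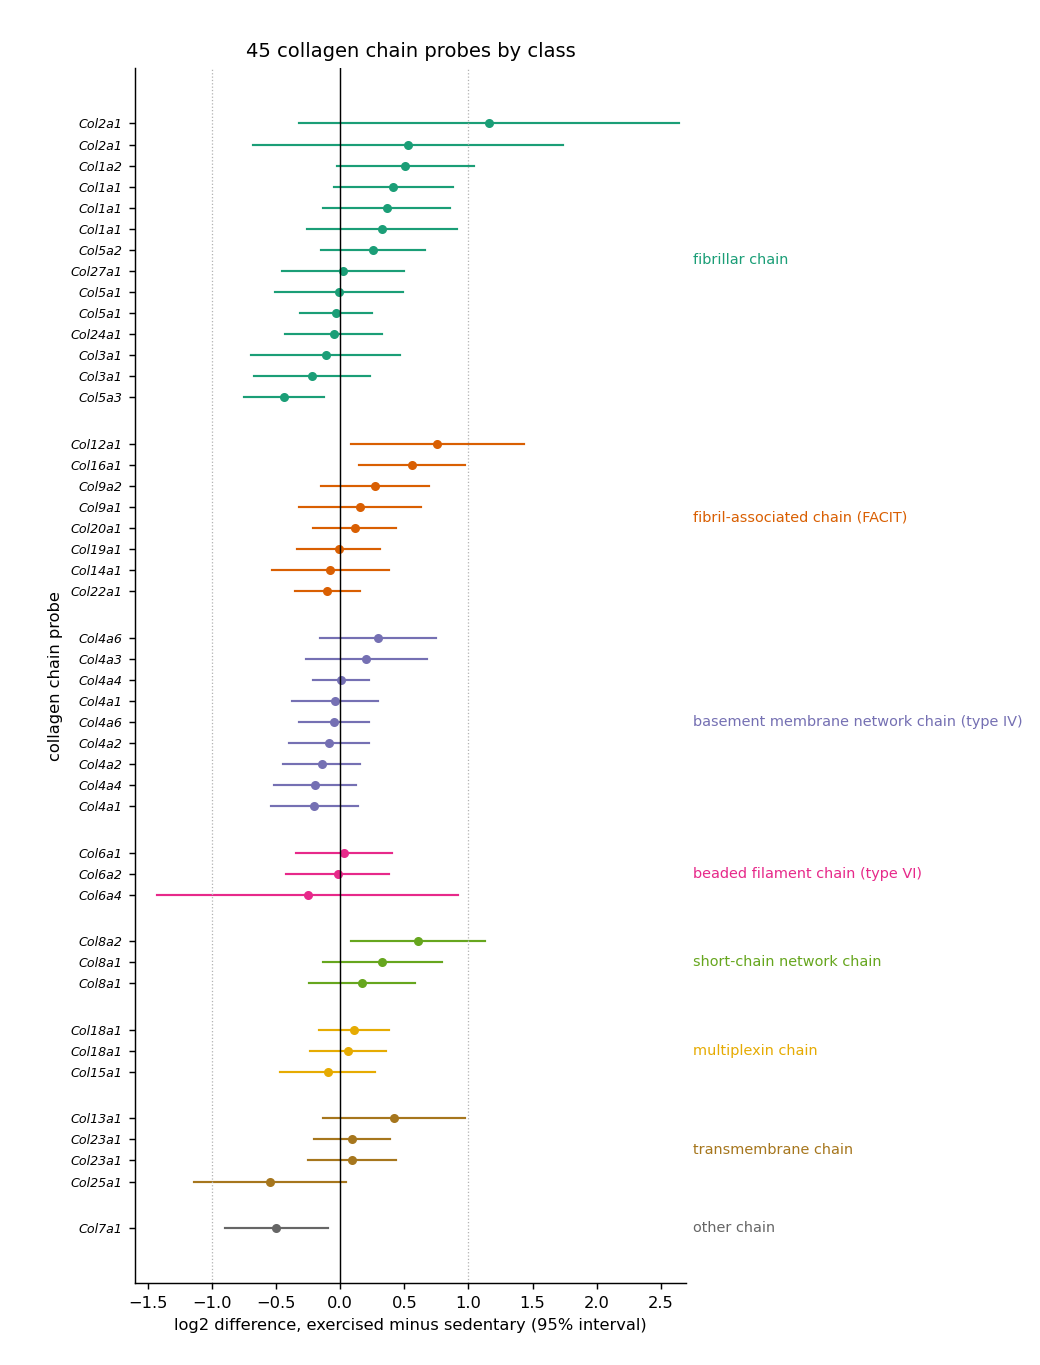
The log2 difference in signal, exercised minus sedentary, for each of the 45 collagen chain probes (points) with its 95% interval from limma (lines), grouped by class of chain; dotted lines mark 2-fold. Intervals that lie wholly to 1 side of 0 belong to Col16a1, Col12a1 and Col8a2 above it and Col5a3 and Col7a1 below it, and none of these passed adjustment.

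Among fibrillar chains, 14 probes for 9 genes were kept. The values are signal relative to the 75th percentile of the same array, so that a value of 1 is that percentile, and levels of different probes are not set against each other. The brightest probe of Col1a1, which encodes the alpha 1 chain of type I collagen, read 44.5 at the lowest, 88.0 at the median and 119 at the highest in exercised mice, against 41.7, 67.9 and 84.6 in sedentary mice. Of the exercised mice 4 lay above every sedentary one, and 1, s2m1, lay near the bottom of the sedentary range. The log2 difference was 0.36 (95% interval -0.14 to 0.86, adjusted p = 0.510). It was 0.54 without exercised s2m1, 0.13 without exercised s2m3 and sedentary s2m2, and -0.12 within slide 2. The other Col1a1 probes gave 0.41 and 0.32.

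Col1a2, its partner in the type I molecule, read 77.7, 159 and 179 in exercised mice (lowest, median, highest), against 58.5, 104 and 152 in sedentary mice. Again 1 exercised mouse, s2m1, was low, and the groups overlapped. The difference was 0.51 (-0.02 to 1.04, adjusted p = 0.349, and 0.521 once slides were blocked), and 0.93, 0.19 and 0.35 within slides 1, 2 and 3. It was 0.68 without exercised s2m1 and 0.30 without exercised s2m3 and sedentary s2m2.

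Col3a1, the single chain of type III collagen, read 29.5, 53.3 and 72.9 in exercised mice, against 46.4, 59.5 and 91.4 in sedentary mice. Its difference was -0.22 (-0.68 to 0.23, adjusted p = 0.687), and it was -0.05 without exercised s2m1 and 0.12 with normexp background correction. The second Col3a1 probe gave -0.12 (-0.69 to 0.46).

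Type V collagen sits inside type I fibrils and limits their width. Its chain gene Col5a3 had the smallest p of all members. It read 5.32, 6.79 and 9.35 in exercised mice, against 7.53, 9.66 and 11.5 in sedentary mice. Of the exercised mice 4 fell below every sedentary one and the other 2 lay inside the sedentary range. The difference was -0.44 (-0.75 to -0.13), with an adjusted p of 0.136 and a slide-blocked one of 0.125, and its sign was the same within slides 1, 2 and 3 (-0.29, -0.80 and -0.22). The 2 Col5a1 probes gave -0.03 and -0.01 and the Col5a2 probe 0.26 (-0.15 to 0.66). For the minor fibrillar chains Col24a1 and Col27a1 the differences were -0.05 and 0.02.

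Both Col2a1 probes had 1 value far above the rest. Probe A_52_P216436 read 0.273, 0.329 and 7.26 in exercised mice, against 0.232, 0.295 and 0.333 in sedentary mice, and the overlapping probe A_51_P317141 read 0.647, 1.09 and 10.3, against 0.631, 1.11 and 1.92. Both maxima were on exercised s2m3, and exercised s1m5 followed on the first probe with 1.15. The overlapping probe read 1.04 on exercised s1m5, below its exercised median, and was next highest on exercised s2m4, at 2.17. The log2 differences were 1.16 (-0.32 to 2.64) and 0.53 (-0.68 to 1.73), and 0.47 and -0.01 without exercised s2m3. On the same array the cartilage gene Acan read 0.868, where the exercised median was 0.0502 and the highest sedentary value 0.0664, and the tendon and cartilage matrix gene Comp read 23.0. Of the 8 cartilage and bone markers 3 were measured, their sum ran 0.379, 0.410 and 1.45 in exercised and 0.310, 0.363 and 0.499 in sedentary mice (lowest, median, highest), 0 of 3 were called, and Matn1 and Matn3 were above background on no array. Their part in the Col2a1 values was not tested.

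**Figure D2:**
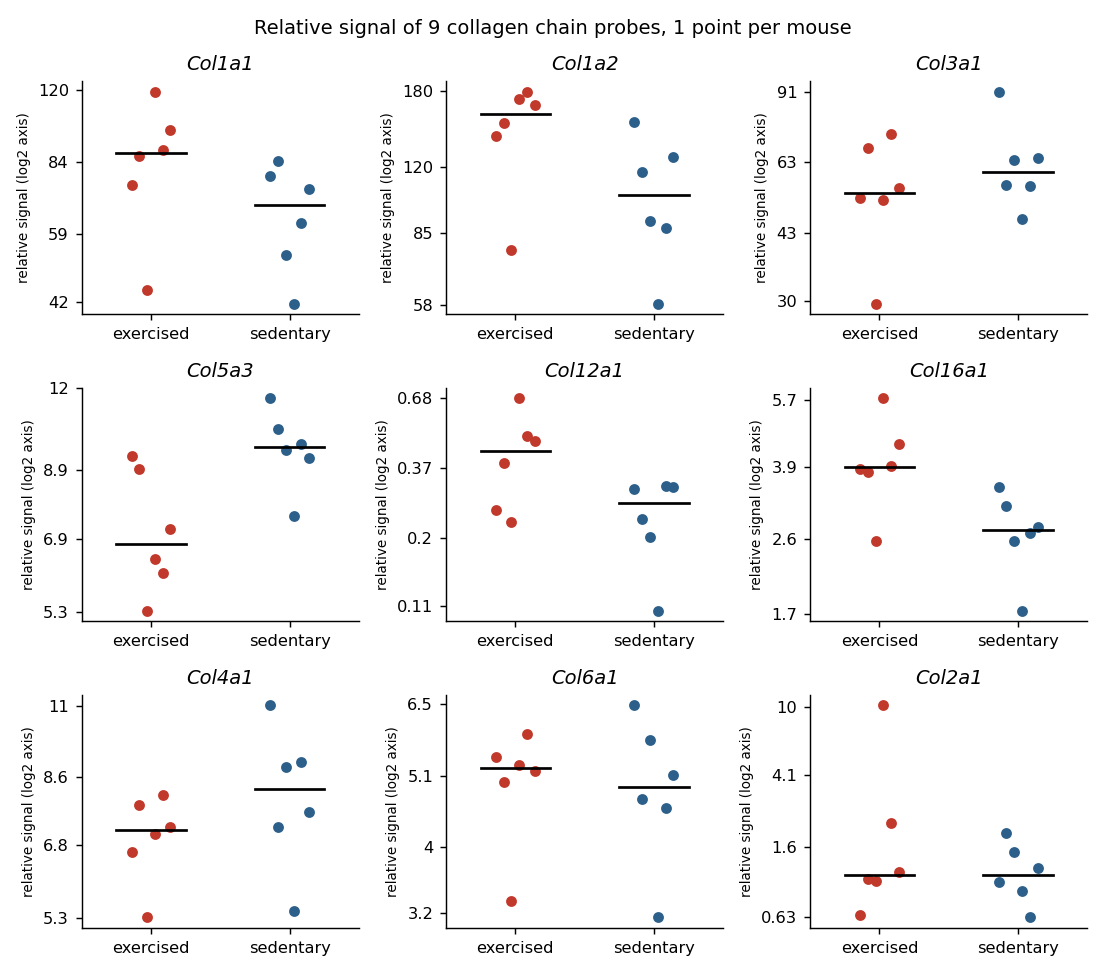
Signal relative to the 75th percentile of the array for 9 collagen chain probes, the brightest of each gene, on log2 axes, with 1 point per mouse (exercised left, sedentary right) and the group median as a line. The groups overlap in each panel. Exercised s2m1 is the lowest exercised point in every panel but that of Col2a1, where 1 exercised point stands far above the rest.

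Fibril-associated chains, which coat the surface of collagen fibrils, were represented by 8 probes for 8 genes, with 5 differences above 0 and a median of 0.13. Col16a1, of type XVI, had the smallest p among them. It read 2.57, 3.89 and 5.74 in exercised mice, against 1.74, 2.74 and 3.49 in sedentary mice. All but 1 of the exercised mice were above every sedentary mouse. The difference was 0.56 (0.15 to 0.97, adjusted p = 0.153, and 0.342 once slides were blocked), and 0.94, 0.30 and 0.32 within the 3 slides. Its highest value was on exercised s2m3 and its lowest on sedentary s2m2, and the difference was 0.33 without both mice and 0.04 with the tendon marker level, described further on, as a covariate.

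Col12a1, a chain of dense tissue such as tendon and fascia, read 0.230, 0.427 and 0.679 in exercised mice, against 0.106, 0.272 and 0.314 in sedentary mice. Its highest value was on exercised s2m3 and its lowest on sedentary s2m2. The difference was 0.76 (0.08 to 1.43, adjusted p = 0.250) over all arrays, and 0.37 without those 2 mice. Within slides 1, 2 and 3 it was 1.31, 0.85 and 0.01. Col14a1, a related chain, read 1.12, 1.56 and 2.28 in exercised and 0.935, 1.81 and 2.33 in sedentary mice, with a difference of -0.08 (-0.54 to 0.38) that turned to 0.09 with slide as a block.

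Col22a1 encodes a chain found where muscle fibres join tendon. It read 8.37, 10.9 and 13.4 in exercised mice, against 9.77, 11.9 and 13.6 in sedentary mice. The ranges were nearly the same, and the interval of the difference (-0.10, -0.36 to 0.16, adjusted p = 0.757) was among the narrower ones. The other fibril-associated chains were Col9a1 and Col9a2, of cartilage type IX, and Col19a1 and Col20a1. Their differences ran from -0.01 for Col19a1 to 0.27 for Col9a2.

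Basement membrane chains did not pass either. Type IV had 9 probes for 5 genes, 3 above 0 and 6 below, with a median of -0.05. Col4a1, whose product pairs with that of Col4a2 in the common form of the network, read 5.30, 7.16 and 8.09 in exercised mice, against 5.41, 8.27 and 11.03 in sedentary mice. Col4a2 read 4.93, 7.21 and 7.68 in exercised mice, against 5.51, 7.89 and 9.36 in sedentary mice. The top of the sedentary range lay above that of the exercised mice for both genes. The differences were -0.20 (-0.54 to 0.14, adjusted p = 0.603) and -0.14 (-0.45 to 0.16, adjusted p = 0.689).

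The other type IV chains belong mainly to special basement membranes such as that of the kidney. A Col4a6 probe, with the smallest p of the class, read 0.0740, 0.121 and 0.146 in exercised mice, against 0.0703, 0.0818 and 0.147 in sedentary mice, a difference of 0.30 (-0.16 to 0.75, adjusted p = 0.564). It was -0.22 within slide 1 and above 0 within the other slides. The second Col4a6 probe gave -0.05, Col4a4 gave -0.20 and 0.01, and Col4a3, above background on 5 exercised and 5 sedentary arrays, gave 0.20.

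Type VI filaments bind the basement membrane to the matrix around the fibre. Col6a1 read 3.33, 5.23 and 5.87 in exercised mice, against 3.15, 4.92 and 6.48 in sedentary mice. Col6a2 read 1.56, 2.37 and 2.98 in exercised mice, against 1.46, 2.46 and 3.36 in sedentary mice. Both pairs of ranges nearly coincide, and the differences were 0.03 (-0.35 to 0.40) and -0.02 (-0.42 to 0.38). Col6a4 read 0.0414, 0.0835 and 0.304 in exercised mice, against 0.0450, 0.0961 and 0.474 in sedentary mice, with 1 high mouse in each group (exercised s1m1 and sedentary s1m5). Its difference of -0.25 (-1.43 to 0.92, adjusted p = 0.879) was -2.84 within slide 2 and 1.06 within slide 3. Sedentary s1m5 was the only sedentary mouse on slide 2, and exercised s1m1 was 1 of 2 exercised mice on slide 3.

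Multiplexins are basement membrane chains with interrupted helices, and a fragment of type XVIII collagen is the angiogenesis inhibitor endostatin. The brightest Col18a1 probe read 3.61, 4.98 and 5.72 in exercised mice, against 3.45, 4.48 and 5.40 in sedentary mice, a difference of 0.06 (-0.24 to 0.36). The second Col18a1 probe, which had the smallest p of this class, read 0.957, 1.32 and 1.53, against 0.930, 1.23 and 1.40, a difference of 0.11 (adjusted p = 0.751). Col15a1 read 0.883, 1.43 and 1.56 in exercised mice, against 0.977, 1.46 and 2.01 in sedentary mice, a difference of -0.10 (-0.47 to 0.27). The groups overlapped for all 3 probes, and 2 sedentary mice lay above every exercised one for Col15a1.

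Type VIII collagen forms the short-chain network beneath blood vessel endothelium and in the cornea. Of its 3 probes all had differences above 0. Col8a2 read 0.438, 0.620 and 1.19 in exercised mice, against 0.281, 0.481 and 0.573 in sedentary mice. The highest value was again on exercised s2m3 and the lowest on sedentary s2m2. The difference was 0.60 (0.08 to 1.13, adjusted p = 0.230), and 0.31 without those 2 mice. The Col8a1 probes gave 0.33 and 0.17.

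Of the transmembrane chains, Col25a1 read 0.0333, 0.0368 and 0.0535 in exercised mice, against 0.0303, 0.0562 and 0.114 in sedentary mice. This probe was above background on 1 exercised array only and came through the limit by its 5 sedentary arrays, so its difference of -0.55 (-1.14 to 0.05, adjusted p = 0.366) carries that choice. Col13a1, a chain of the neuromuscular junction, gave 0.42 (-0.13 to 0.97), but 0.21 without sedentary s2m2, 0.08 without that mouse and exercised s2m3, and -0.25 with the tendon level as a covariate. The Col23a1 probes both gave 0.09. The remaining member was Col7a1, the chain of the anchoring fibrils of skin. It read 6.09, 8.79 and 10.3 in exercised mice, against 7.27, 12.6 and 16.7 in sedentary mice. All sedentary mice but s1m1, the lowest of them, lay above every exercised mouse. The difference was -0.50 (-0.90 to -0.10, adjusted p = 0.193), and -0.64, -0.61 and -0.34 within slides 1, 2 and 3. Of 5 skin epithelium markers 4 were measured and 0 called, with sums of 1.87, 1.96 and 2.33 in exercised mice, against 1.99, 2.05 and 8.94 in sedentary mice, and their part in the Col7a1 values was not tested.

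Some mice were low or high for many chains at once. On exercised s2m1 the median deviation of the members from their own 12-array means was -0.45, and 11 probes had their lowest value there. On sedentary s2m2 the median deviation was -0.41, with 21 lowest values. Exercised s2m3 held the highest value of 14 members and sedentary s1m1 that of 11. Over all probes the share above their own mean was 48.4% on exercised s2m1 and 55.3% on sedentary s2m2. Because each array was scaled to its own 75th percentile, this share cannot show a shift of a whole array. Before scaling that percentile was 210 on exercised s2m1 and 191 on sedentary s2m2. It ran from 167 on sedentary s1m6 to 237 on sedentary s2m5. Leaving out exercised s2m1 brought the members at an unadjusted p below 0.05 to 10 of 45, against 14.4% of all probes in the same fit, and 0 were called. That mouse was singled out by its low chain values, and removing a low exercised mouse raises the difference by itself. The same count without sedentary s2m2 is not given here.

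**Figure D3:**
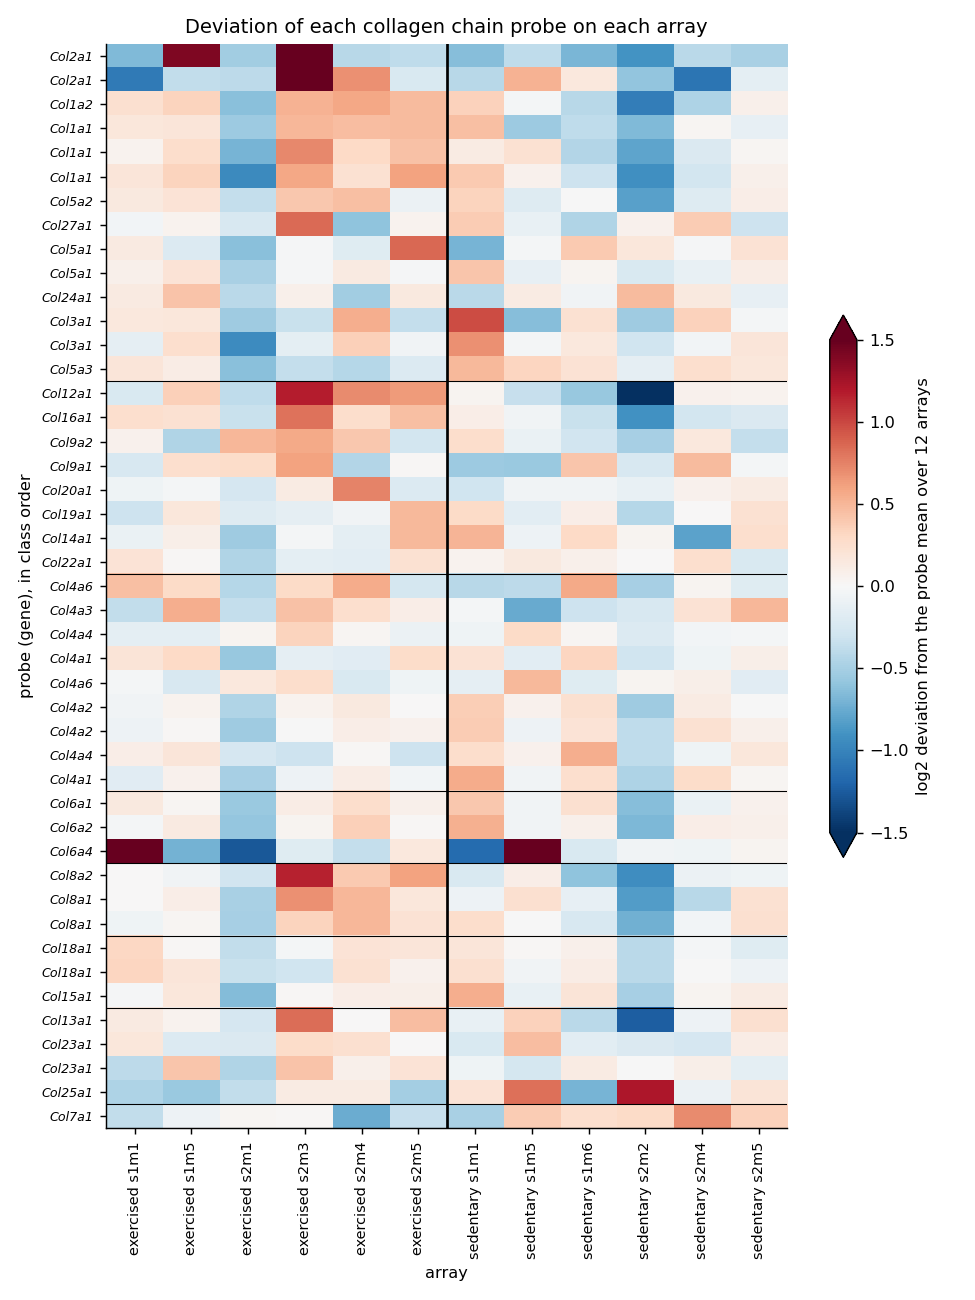
Deviation of each of the 45 collagen chain probes (rows, in class order) from its mean over the 12 arrays, on the log2 scale, for each array (columns, exercised left of the line and sedentary right). Exercised s2m1 and sedentary s2m2 are low for most chains, with median deviations of -0.45 and -0.41, and the colours saturate beyond 1.5.

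Tendon cell markers were followed beside the chains, since muscle ends in tendon. All 10 markers of this list were measured on 12 of 12 arrays. Differences were above 0 for 10 of 10 (44.3% of all probes), with a median of 0.92, and 0 passed. Tnmd, a tendon membrane protein gene, read 1.52, 2.77 and 3.93 in exercised mice, against 0.352, 1.54 and 2.22 in sedentary mice, a difference of 1.11 (0.28 to 1.94, adjusted p = 0.158). Comp gave a difference of 1.102 (0.27 to 1.94, adjusted p = 0.165) and Fmod, a fibril-binding proteoglycan gene, 0.92 (0.28 to 1.56, adjusted p = 0.127). The sum of the list ran 66.7, 120 and 173 in exercised mice, against 29.4, 77.3 and 87.4 in sedentary mice, highest on exercised s2m3 and lowest on sedentary s2m2.

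The chains were then compared with the tendon level, the mean deviation of those 10 markers on each array. Over 12 arrays and 10 chains, Col1a1 had a Pearson r of 0.918 and a Spearman rho of 0.944, Col1a2 0.909 and 0.923, and Col12a1 0.945 and 0.846. These 3 passed by a two-sided permutation test of r with 100000 resamples (adjusted p = 6.67e-05 each, raw p = 1e-05 for Col1a1, the smallest these permutations can give). The test was run for the 10 chains only, so no share over all probes stands beside it. Other chains, Col16a1 and Col8a2 among them, were not tested against the tendon level. The permutation p of rho was 4e-05 for Col1a1 and Col1a2 and 0.00095 for Col12a1. Without the 2 arrays farthest from the median tendon level, exercised s2m3 and sedentary s2m2, r was 0.864, 0.910 and 0.814, and the same 3 chains passed.

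The other 7 chains did not pass. Col6a1 had r = 0.623 (adjusted p = 0.0844) and rho = 0.517, falling to r = 0.372 without those 2 arrays. Col15a1 had r = 0.451, Col5a1 0.386, Col4a1 0.265, Col3a1 0.241, Col14a1 0.159 and Col22a1 0.011, with adjusted p from 0.282 for Col15a1 to 0.973 for Col22a1. Within the 6 exercised arrays r was 0.940 for Col1a1, 0.814 for Col1a2 and 0.904 for Col12a1, and 0 of 10 chains passed an exact permutation test after adjustment (raw p = 0.00972, 0.0472 and 0.0153). Within the 6 sedentary arrays r was 0.944, 0.935 and 0.933, and Col1a1 and Col1a2 passed by the exact permutation test (adjusted p = 0.0278 each). A slide holds 4 arrays, too few for a value within it. With group and slide means removed, r was 0.928, 0.893 and 0.914 for these 3 chains. Among the other 7 it was 0.838 for Col15a1, 0.804 for Col6a1, 0.735 for Col4a1, 0.673 for Col5a1, 0.628 for Col3a1, 0.523 for Col14a1 and 0.312 for Col22a1.

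With the tendon level as a covariate in limma, 0 of 45 members were called, and the median difference of the members was -0.21. The median over all probes in this fit is not given beside it. The tendon level was itself higher in exercised mice (median difference of its markers 0.92). A training difference that goes with it is therefore taken out too, and the 2 cannot be told apart in this fit. The count over all probes also fell, as given at the end. Col1a2 had a difference of -0.10, Col1a1 -0.24 and Col12a1 -0.06, against 0.51, 0.36 and 0.76 without it. Col5a3 stayed below 0, at -0.60, the lowest of the members, and the highest was a Col4a6 probe at 0.17. Other chains lay nearly as low as Col5a3, among them Col3a1 at -0.56, Col4a1 at -0.49 and Col15a1 at -0.44.

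**Figure D4:**
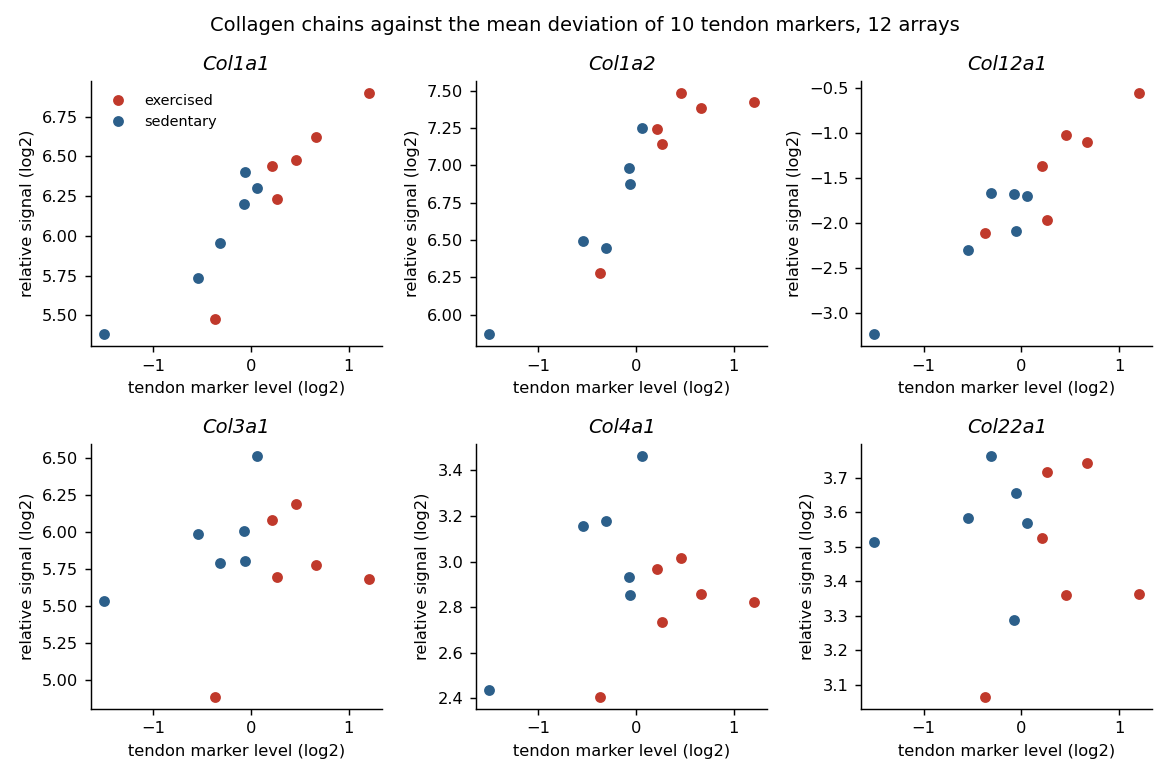
Log2 relative signal of 6 collagen chains (vertical axes) against the mean log2 deviation of 10 tendon markers (horizontal axes), 1 point per mouse and 12 in each panel, exercised in red and sedentary in blue. Col1a1, Col1a2 and Col12a1 climb along the tendon level (r = 0.918, 0.909 and 0.945), whereas Col22a1 does not (r = 0.011).

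Chains that share a molecule were also compared across the arrays, in 7 pairs chosen after the data had been seen. Col4a1 and Col4a2 followed each other most closely, with r = 0.967 and rho = 0.972 over 12 arrays (adjusted permutation p = 3.5e-05 for r and 7e-05 for rho). Type I chains Col1a1 and Col1a2 had r = 0.932 and rho = 0.916 (adjusted permutation p = 3.5e-05 and 0.00035), and type VI chains Col6a1 and Col6a2 had r = 0.940 and rho = 0.622 (adjusted permutation p = 0.000233 for r and 0.0479 for rho). The value for type VI rests in part on the arrays at the extremes, since it was 0.732 without the 2 arrays farthest from the median of Col6a1. It was 0.966 for Col4a1 and Col4a2 and 0.855 for Col1a1 and Col1a2 under the same rule.

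Type V chains Col5a1 and Col5a2 had r = 0.737 (adjusted permutation p = 0.0111) and type VIII chains Col8a1 and Col8a2 r = 0.760 (adjusted permutation p = 0.00805). Removing the 2 farthest arrays of each pair gave 0.806 and 0.647, and the type VIII pair no longer passed (adjusted permutation p = 0.0584). With group means removed, r was 0.921 for type I, 0.826 for type V, 0.965 for Col4a1 and Col4a2, 0.943 for type VI and 0.780 for type VIII, beside a median of 0.29 over all 528 pairs of chain genes. Col4a1 was most like Col4a2 among the 32 other chains, and Col1a1 had Col1a2 as its second nearest. Col6a2 ranked 2 for Col6a1, Col5a2 ranked 7 for Col5a1 and Col8a2 ranked 11 for Col8a1. Taken the other way, the partner ranked 2 for Col4a2, 2 for Col1a2, 4 for Col6a2, 8 for Col5a2 and 6 for Col8a2. Col4a4 ranked 29 for Col4a3 (26 the other way) and Col9a2 ranked 12 for Col9a1 (19 the other way). Col4a3 and Col4a4 (r = -0.116) and Col9a1 and Col9a2 (r = 0.103), which include faint probes, did not pass. Without the 2 farthest arrays r was 0.480 for Col4a3 and Col4a4, and it was 0.304 within exercised and -0.561 within sedentary mice.

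**Figure D5:**
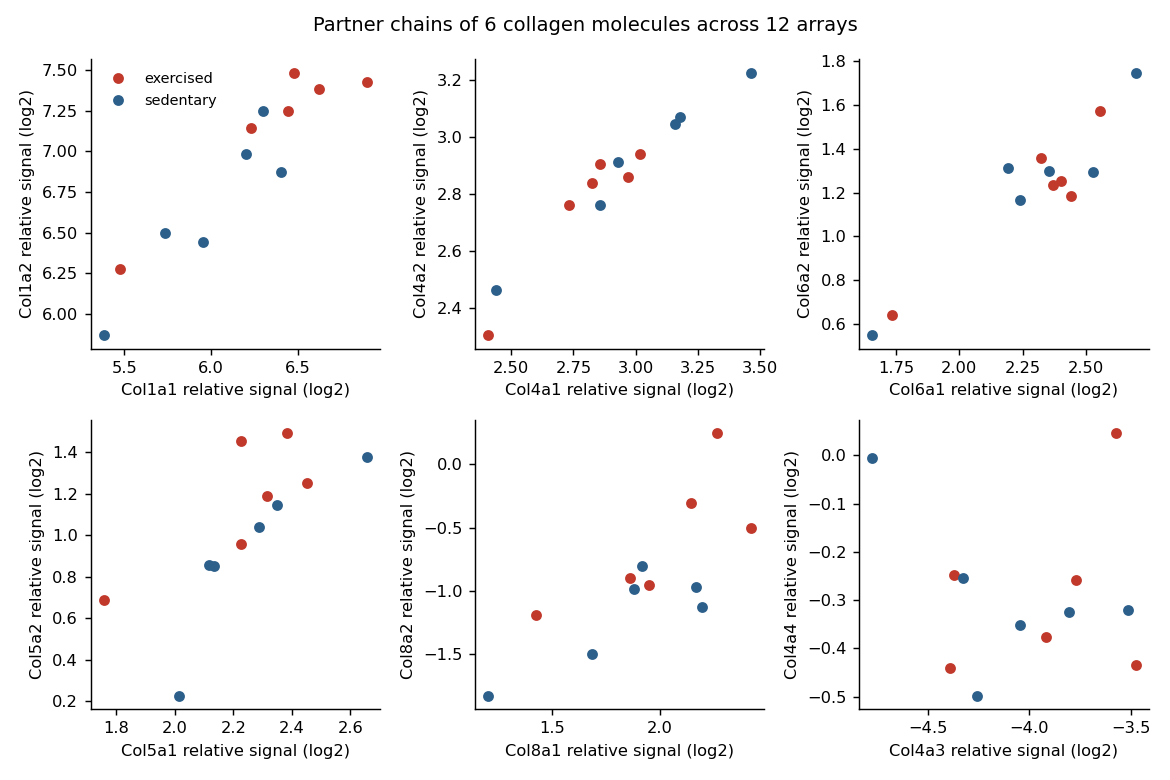
Log2 relative signal of the second chain (vertical axes) against the first (horizontal axes) for 6 collagen molecules, 1 point per mouse, exercised in red and sedentary in blue. Points for Col4a1 and Col4a2 lie close to a line (r = 0.967), those for Col4a3 and Col4a4 do not (r = -0.116), and a low mouse of each group sits at the bottom left for types I, IV and VI.

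The genes of these pairs lie differently in the genome. On GRCm38.p6, the RefSeq build, Col4a1 (chromosome 8, 11198423 to 11312889, minus strand) and Col4a2 (11312805 to 11449287, plus strand) overlap by 85 bases head to head. Col4a3 and Col4a4 on chromosome 1 overlap by 114 bases. Col6a1 and Col6a2 lie 85161 bases apart on the minus strand of chromosome 10, and Col1a1 and Col1a2 on chromosomes 11 and 6. Because Col1a2, Col6a1 and Col6a2 follow their partners without sharing a start, the 250 bases before their starts are printed, from RefSeq. The windows are chr6:4505368-4505617 (plus strand), chr10:76726045-76726294 (minus) and chr10:76623631-76623880 (minus), on GRCm38.p6. Capitals mark the motif CCAAT, the motif GGGCGG or the motif TATAAA on either strand.
Col1a2 upstream: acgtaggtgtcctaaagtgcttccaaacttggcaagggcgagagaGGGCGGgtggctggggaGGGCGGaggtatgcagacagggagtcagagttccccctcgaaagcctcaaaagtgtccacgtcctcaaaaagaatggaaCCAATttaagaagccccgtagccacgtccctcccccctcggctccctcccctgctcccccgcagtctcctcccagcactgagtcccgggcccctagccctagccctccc
Col6a1 upstream: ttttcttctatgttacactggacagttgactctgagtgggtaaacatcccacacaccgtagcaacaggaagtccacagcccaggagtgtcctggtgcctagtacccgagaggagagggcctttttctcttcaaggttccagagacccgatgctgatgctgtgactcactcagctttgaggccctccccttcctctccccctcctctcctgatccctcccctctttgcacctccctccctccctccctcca
Col6a2 upstream: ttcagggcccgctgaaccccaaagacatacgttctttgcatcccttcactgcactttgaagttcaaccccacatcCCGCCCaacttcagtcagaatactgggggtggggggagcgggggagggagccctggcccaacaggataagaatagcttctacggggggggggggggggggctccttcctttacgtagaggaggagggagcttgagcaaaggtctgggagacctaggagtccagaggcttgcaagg

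The Col1a2 window held 2 GGGCGG and 1 CCAAT, the Col6a2 window 1 GGGCGG on the other strand, and the Col6a1 window none of the 3 motifs. Over all 32841 RefSeq windows of this length, searched on both strands with overlaps allowed, 32.7% held GGGCGG, 33.9% CCAAT and 12.4% TATAAA. Windows were found for 26 of the 33 chain genes, 29 in all, and GGGCGG was in 17 of them, CCAAT in 10 and TATAAA in 2.

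Genes for enzymes and chaperones that make collagen were tested next. Of 33 listed processing genes 29 were measured, 3 rose and 0 fell, against 1.81% of all probes called higher and 1.51% lower. Differences were above 0 for 18 of the 29 genes, against 44.3% of all probes, and the list's median was 0.11. All 3 that rose encode hydroxylases or a subunit of one. The collagen chaperone gene Serpinh1 did not pass, with a difference of 0.37 (0.09 to 0.65, adjusted p = 0.162). P4ha2, which encodes a catalytic subunit of prolyl 4-hydroxylase, read 12.9, 15.2 and 17.4 in exercised mice, against 10.1, 11.4 and 12.3 in sedentary mice. No exercised mouse was as low as any sedentary one. The difference was 0.40 (0.23 to 0.58, adjusted p = 0.0167, and 0.00892 once slides were blocked). P4ha1, the sister subunit, read 4.35, 5.52 and 6.24 in exercised mice, against 3.63, 4.10 and 4.44 in sedentary mice, so that the groups overlapped slightly. It rose by 0.41 (adjusted p = 0.0359), and Plod2, a lysyl hydroxylase gene named after its values were seen, by 0.89 (adjusted p = 0.0493).

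These calls differ in how far single mice carry them. P4ha2 was called in 12 of the 12 fits without 1 mouse, P4ha1 in 3 and Plod2 in 1. The count of the list was 1 without exercised s1m5, s2m3, s2m4 or s2m5, and 1 without sedentary s1m5, s1m6, s2m2, s2m4 or s2m5. With slide as a block 1 of the 3 was called, P4ha2, and P4ha1 and Plod2 had adjusted p of 0.0918 and 0.145. With the tendon level as a covariate 0 of the 3 were called, P4ha2 at an adjusted p of 0.134, P4ha1 at 0.334 and Plod2 at 0.358. Under normexp background correction no probe on the array was called, these 3 genes included.

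Genes for receptors and turnover were set beside the share over all probes, of which 1.81% were called higher and 1.51% lower. Of 11 collagen receptor genes 8 were measured, 1 rose and 0 fell, with a median of -0.02. Adgrg1, an adhesion receptor that binds type III collagen, read 2.25, 2.66 and 2.88 in exercised mice, against 1.15, 1.49 and 1.73 in sedentary mice. The groups did not overlap, and the difference was 0.81 (0.58 to 1.03, adjusted p = 0.001, and 0.000631 once slides were blocked). With the tendon level as a covariate in limma, the adjusted p of Adgrg1 was 0.0107. Lair1, an inhibitory receptor of immune cells, had a difference of -0.61 (-0.96 to -0.26, adjusted p = 0.0621). The list's count was 2 without exercised s2m1, exercised s2m5 or sedentary s2m5.

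Of 16 genes for collagen breakdown and its inhibitors 13 were measured, with a median of 0.06. Among them 2 rose and 0 fell, against 1.81% of all probes called higher and 1.51% lower. Both genes that rose encode inhibitors of metalloproteinases. Timp3 read 14.8, 16.3 and 17.8 in exercised mice, against 9.86, 10.4 and 12.3 in sedentary mice, a difference of 0.60 (0.44 to 0.76, adjusted p = 0.000902, and 0.00845 once slides were blocked). Timp4 read 4.97, 6.40 and 7.29 in exercised mice, against 2.86, 3.83 and 4.16 in sedentary mice, a difference of 0.79 (0.54 to 1.04, adjusted p = 0.00236, and 0.015 once slides were blocked). Neither pair of ranges overlapped, and with the tendon level as a covariate the adjusted p was 0.0164 and 0.0278.

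The TGF-beta pathway drives collagen transcription in fibroblasts. Of its 18 listed genes 17 were measured, and the median was 0.03. Among them 3 rose and 0 fell, against 1.81% of all probes called higher and 1.51% lower. Ccn2, a matricellular factor gene, read 11.1, 23.9 and 36.7 in exercised mice, against 5.63, 7.54 and 9.25 in sedentary mice, with no overlap and a difference of 1.60 (1.02 to 2.18, adjusted p = 0.00609). Skil, which encodes a Smad repressor, read 1.08, 1.17 and 1.31 in exercised mice, against 0.664, 0.786 and 0.999 in sedentary mice, a difference of 0.57 (0.35 to 0.78, adjusted p = 0.00835, and 0.0436 once slides were blocked). Ltbp2, named after its values were seen, rose by 0.74 (adjusted p = 0.0436) and was called in 2 of the 12 fits without 1 mouse. With slides blocked its adjusted p was 0.0568, which leaves 2 of the 3 calls. With the tendon level as a covariate 0 of the 3 were called, at adjusted p of 0.0876 for Ccn2, 0.0907 for Skil and 0.212 for Ltbp2. The ligands Tgfb1, Tgfb2 and Tgfb3 had differences of -0.03, -0.0030 and -0.03.

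Of the other cell type lists, that of fibroblasts and fibro-adipogenic progenitors, the main source of matrix in muscle, had 1 of 13 genes called higher (Twist2, a transcription factor gene, adjusted p = 0.0173, and 0.0527 once slides were blocked) and 0 lower. Its sum ran 545, 644 and 675 in exercised mice, against 437, 534 and 688 in sedentary mice. Of 8 endothelial markers 2 were called lower, Kdr and Cldn5, and Cldn5 was not called once slides were blocked (adjusted p = 0.0721) and was called in 5 of the 12 fits without 1 mouse. Their sum ran 18.2, 19.2 and 22.4 in exercised mice, against 21.4, 26.3 and 31.1 in sedentary mice. Of 8 smooth muscle and pericyte markers Cnn1 and Myh11 were called higher and Kcnj8 lower, and Myh11 was not called once slides were blocked (adjusted p = 0.141) and was called in 2 of the 12 fits. The sum of that list ran 710, 727 and 826 in exercised mice, against 702, 816 and 848 in sedentary mice. Muscle fibre markers were measured for all 12 listed genes, with sums from 9553 to 11977 in exercised and from 10778 to 12471 in sedentary mice. Over all probes 1.81% were called higher and 1.51% lower. What part these cell types have in the chain values was not tested.

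The training difference was compared between the sets of the titles, whose meaning is not stated. The interaction was called for 0 of 45 members (smallest adjusted p = 0.583) and for 0 of 22918 probes by limma (0%), and at an unadjusted p below 0.05 for 1 member, Col24a1, against 8.43% of all probes.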

How the data were processed

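RNA of quadriceps from 12 mice was labelled with Cy3 and hybridised to one-colour Agilent arrays, per the labels' protocols, 1 array per mouse. The deposited scanner files hold intensity values, background-subtracted and detrended within each array by Feature Extraction 10.5.1.1 per the file headers. The submitters' processing notes name Agilent Feature Extraction 9.1. The value table deposited with them holds the same processed intensity, with 100% of single-spot values within 0.1% of it, column medians from 14.4 to 23.2, and no scaling between arrays.

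Spots marked as outliers were left out, the remaining spots of a probe were averaged, and log2 values were taken relative to the 75th percentile of their own array. Probes well above background on 6 or more arrays were kept. Between 21728 and 25246 gene probes per array were above background, and arrays correlated at 0.978 to 0.993. Exercised and sedentary mice were compared with limma 3.58.1 in R 4.3.3 (with the data.table package, version 1.17.8), with Benjamini-Hochberg adjustment over all probes kept and a threshold of 0.05. Correlations used permutation tests. The procedure was tested on simulated data.

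The members and lists were chosen with earlier results of these data known. Values are given for the probe with the smallest p of each class, the brightest probe of the main chains of muscle, the leading genes of each pathway list, and Tnmd, Comp and Fmod. A gene on a pathway list is represented by its brightest probe. Alternatives covered scaling, background, filters, spots, slides, title sets, the deposited table, arrays left out and the tendon level. Some collagen chain genes are not reported here.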

Additional observations from a re-analysis of the deposited data

Results flagged for a closer look

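In 10 of 90 groups of 6 values, the highest or lowest mouse stood farther from its nearest neighbour than Dixon's 95% limit of 0.625 of the range. Chance gives about 1 in 20 such groups. Of the 10, 8 had exercised s2m1 as the lowest exercised mouse. Its relative signal was 77.7 for Col1a2 (next lowest 141.6), 3.78 (8.33) and 0.0829 (0.136) for 2 probes of Col1a1, 3.38 (4.68) for a Col5a1 probe and 0.883 (1.36) for Col15a1. It was 4.93 (6.78) and 2.60 (3.43) for the 2 Col4a2 probes and 3.33 for Col6a1. The tendon marker sum on this array was 66.7, the lowest of the exercised mice. Exercised s2m4 was the highest of its group for Col20a1, at 0.579 (next 0.375), and sedentary s1m5 for Col6a4, at 0.474 (next 0.103).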

How the results depend on the processing

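No collagen chain probe was called under any of the alternatives run, save 1 with sedentary s1m1 left out (0 to 1 over the fits without 1 mouse). The share of all probes called without that mouse is not given here. Of 376 values of 20 named probes under other alternatives, 342 kept their sign, 34 reversed and 0 passed, and of 240 with 1 mouse left out 228 kept it, 11 reversed and 1 passed. The cause was not tested. With normexp Col15a1 was 0.0086, Col22a1 0.13, Col3a1 0.12, Col4a1 0.026, Col4a2 0.067 and Col6a2 0.090. Col6a1 was -0.0057 with array weights, Col14a1 0.092 with slide as a block and Col6a2 0.017 with title set. Within slide 1 Col4a6 was -0.22, Col6a4 0.25, Col14a1 0.29, Col15a1 0.14, Col22a1 0.28, Col4a1 0.016, Col4a2 0.10 and Col6a2 0.19. Within slide 2 both Col18a1 probes were -0.083, Col1a1 -0.12 and Col6a1 -0.0073, and within slide 3 Col6a4 was 1.06, Col14a1 0.14 and Col6a1 -0.063. With the tendon level Col18a1 was -0.089 and -0.067, Col8a2 -0.018, Col12a1 -0.057, Col1a1 -0.24, Col1a2 -0.10 and Col6a1 -0.34. Without exercised s2m3 and sedentary s2m2, chosen after seeing the data, Col6a1 was -0.12, and the r of Col4a1 with the tendon level was -0.035. With 1 mouse left out, Col18a1 (A_51_P191700) ran from -0.016 to 0.13, Col6a1 from -0.097 to 0.14, Col14a1 from -0.25 to 0.022, Col15a1 from -0.21 to 0.020, Col6a2 from -0.16 to 0.093, Col6a4 from -0.60 to 0.17 and Col7a1 from -0.65 to -0.40.

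Processing genes called numbered 3, 1 with slide as a block and 1 to 4 with 1 mouse left out, and receptor genes 1, and 1 to 2. Of the 10 chains set against the tendon level 0 passed within exercised mice. Over all probes the count was 759, and 0 with normexp, 394 with no filter, 443 with slide as a block, 0, 10 and 0 within slides 1, 2 and 3, 357 with the tendon level, 453 without those 2 mice and 1281 at an adjusted p below 0.10. Since 0 probes were called with normexp, no gene named above as called passed under it, P4ha2, Adgrg1, Timp3, Timp4, Ccn2 and Skil included. The cause of that loss was not tested. The replicate block on 4 shared numbers gave 0 members and 34 probes, with Col14a1 at 0.11 and Col22a1 at 0.016. Mice of the same number had correlations of deviations of 0.14, -0.18, 0.09 and 0.24, and the labels state no pairing. The number of arrays and the faint signal of 6 member probes, not above background on every array, limit what could be detected.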
